A study of Bos taurus with 16 samples.

Results

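Annexins are proteins that bind phospholipid membranes when calcium is present. Probes were taken as annexin probes when their gene name, or the symbol in brackets in their description, was ANXA followed by a number. This gave 13 of the 21475 probes on the array and 12 of its 20602 gene names, namely ANXA1 to ANXA11 and ANXA13, with 1 probe per gene except for ANXA6, which had 2. The gene name identified 6 of the genes, and the description identified the other 6. Of the 13 probes, 10 probes for 9 genes were well above background often enough to be tested, and those for ANXA9, ANXA10 and ANXA13 were not.

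RNA from cells sorted on the monocyte antigen CD14 of the endometrium was compared with that from the blood of the same 4 pregnant cows, which were killed at an abattoir. The cows were at days 164, 239, 242 and 248 of pregnancy and are called animals 1 to 4 in that order. Endometrial cells came from the areas between the placentomes, and blood cells were sorted from the mononuclear fraction of cardiac blood. Amplified RNA from both tissues of an animal was hybridized together on Agilent arrays with 2 colours, with 2 arrays per animal. The dyes were exchanged between the arrays of each animal except animal 3, so dye and tissue cannot be told apart in that animal. Each animal is the replicate, so n is 4, and tissue ratios were taken within the animal.

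In most annexins a conserved core holds the calcium sites and attaches to acidic phospholipids, above all phosphatidylserine, while the variable N-terminal tail binds partners such as S100 proteins. Annexins act in membrane repair, vesicle traffic and the anticoagulant coating of cell surfaces. In myeloid cells ANXA1 is known as a mediator that limits inflammation, and in the placenta ANXA5 is known for covering trophoblast membranes.

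Each probe was an oligonucleotide of 60 bases with 2 spots on the array, and no pair of annexin probes shared a run of more than 10 bases. The first 30 bases of 5 probes are shown because the results turn on them. ANXA4, ANXA5 and ANXA7 had the lowest p values, and the 2 ANXA6 probes carry the same gene name, have different sequences and gave different patterns.
ANXA4: gtgttgatttgaatacttgcatttgttgat
ANXA5: cccaaacattcctgatgtgaaagtcactcg
ANXA7: attctcactgctcttattctaaataggaca
ANXA6 A_73_105466: ggacaaacgagcagatccaccagctggggg
ANXA6 A_73_110107: ttcccagcttccatctcttgtcacagcccc
The sequences are those of the scanner files, written 5′ to 3′ and all in lower case because no base is singled out. Of the 13 probes, 7 had an accession in a reference table of bovine genes (assembly ARS-UCD2.0), and there the accession of the ANXA8 probe, NM_174241, carried the symbol ANXA8L1.

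The labelled cell type was checked against marker genes before the annexins were examined. Levels are log2 normalized intensities, and each is compared only with the same probe in other samples. CD14, the antigen used for sorting, had blood levels of 14.24, 6.30, 7.63 and 6.69 in animals 1 to 4. Its level in endometrium was 12.17, 6.41, 8.14 and 6.82 in the same order. Animal 1 was high in both tissues and the other 3 animals were low in both, although the probe was well above background in all 16 channels. CD163, a scavenger receptor of monocytes and macrophages, was at 13.21 in the blood of animal 1 and at 7.53, 8.35 and 8.26 in that of animals 2 to 4. CD3E, a chain of the T cell receptor complex, showed the opposite order in blood, with 7.19 in animal 1 and 12.32, 11.26 and 12.50 in animals 2 to 4. In endometrium, CD163 was at 14.40, 8.22, 11.45 and 11.45 and CD3E at 8.81, 13.43, 12.96 and 12.25. The paper reported by flow cytometry, which reads the CD14 protein, that most cells of both final preparations were CD14+, with blood the purer. By the RNA of CD14, CD163 and CD3E, the blood samples of animals 2 to 4 went against that label. CD14 RNA was low in the endometrial samples of the same animals too. The annexin results are therefore also given without animal 1, the only animal with a high CD14 signal, and for animal 1 alone. Animal 1 was also the only cow at day 164 of pregnancy, the others being at days 239 to 248. Stage of pregnancy and marker levels therefore cannot be told apart where animal 1 is set against the others. In RNA from a whole sorted sample, fewer cells of a type and less RNA per cell cannot be told apart.

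**Figure D1:**
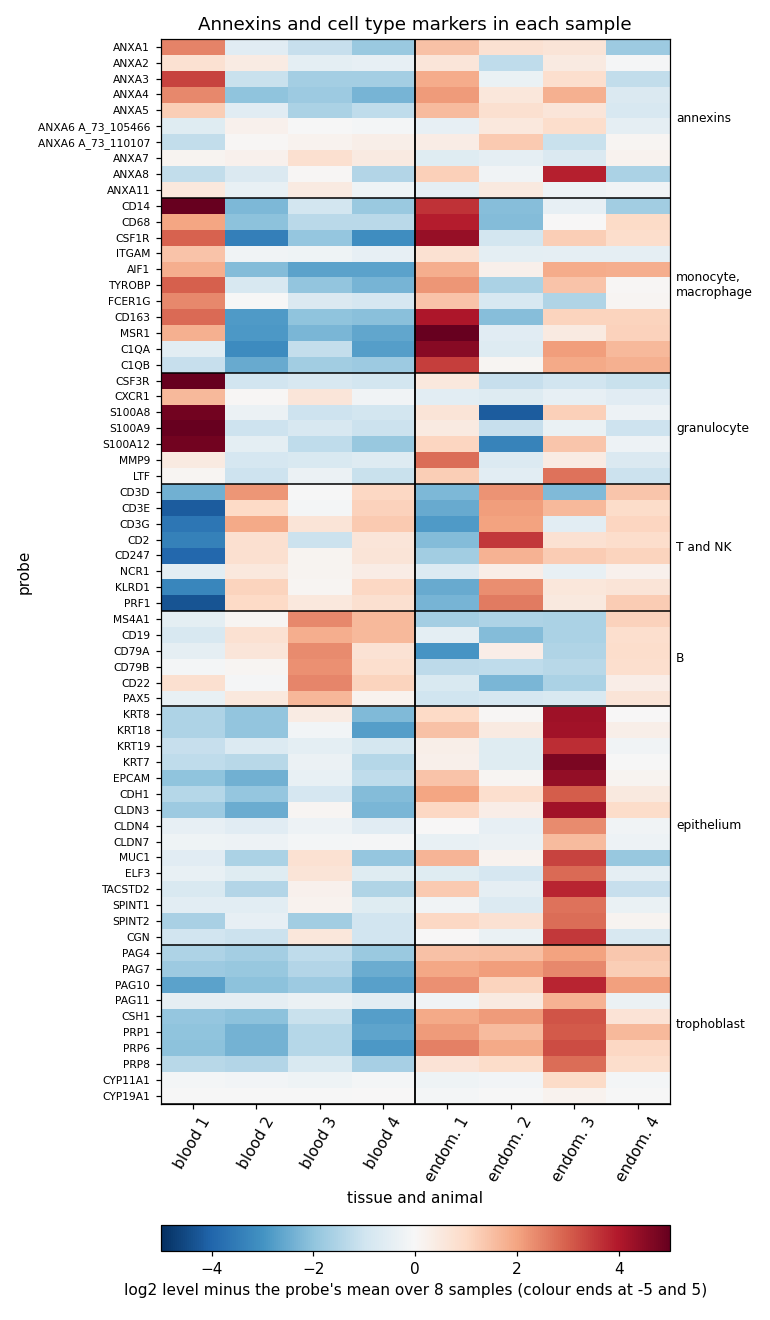
Level of each tested annexin probe and of marker genes in each of the 8 samples, as the log2 level minus that probe's mean over the samples. Rows are probes grouped by list, and columns are tissue and animal. ANXA1, ANXA3 and ANXA4 are high in the blood of animal 1, as are CD14 and CD163, while the T and NK cell genes are low there.

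Whole marker lists were then described by medians and by a summed level. The summed level is the log2 of the summed unlogged intensities of a list's tested genes in a sample. It is compared only with the same list in other samples, and the brightest probes weigh most in it. The summed level of 11 tested monocyte and macrophage genes lay between 12.29 and 16.76 in blood and between 13.86 and 17.44 in endometrium. Of the 11, 8 had a positive mean ratio, against 47.4% of all tested probes. The median ratio of this list was 1.19, 0.69, 3.10 and 3.20 in animals 1 to 4. For the 8 tested T and NK cell genes the summed level lay between 10.05 and 14.84 in blood and between 11.70 and 16.01 in endometrium. Genes of the trophoblast, the fetal layer of the placenta, had median ratios of 3.38, 3.20, 3.71 and 3.34. Of the 10 tested, 5 passed the adjusted threshold given below, against 0.0661% of all tested probes. These 5 were PAG4, PAG7, CSH1, PRP1 and PRP6, which the paper had already reported as upregulated in these same samples. Their count is therefore not an independent result. The mean ratios of PAG11, CYP11A1 and CYP19A1 were far lower, at 0.86, 0.26 and 0.025. All 15 tested epithelial genes had a positive mean ratio, against 47.4% of all tested probes, with a list median of 2.06, 0.99, 3.80 and 0.71. The part of any of these cells in the annexin levels was not tested.

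No annexin passed the test between endometrial and blood CD14+ cells. The threshold for a call in limma was 0.05 for the adjusted p together with a fold change above 2, and 0 of 10 annexin probes were called, against 0.0661% of all 16654 tested probes. The lowest adjusted p of an annexin was 0.287. With 0.05 as the limit for the unadjusted p and the fold kept, ANXA4 and ANXA5 passed and both were higher in endometrium, which is 2 of 10 against 10.4% of all probes in either direction and 5.27% in that direction. That number was 0 without animal 2 and 0 without animal 3, and with the authors' value table the 2 probes were ANXA4 and ANXA8. With any fold the number was 3 of 10, ANXA7 being added, against 15.2%. With the least-squares analysis of the methods, no annexin passed at either threshold. The median log2 ratio of the 10 annexin probes was 0.44, beside -0.023 for all tested probes, and 7 of the 10 were positive, beside 47.4%.

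**Figure D2:**
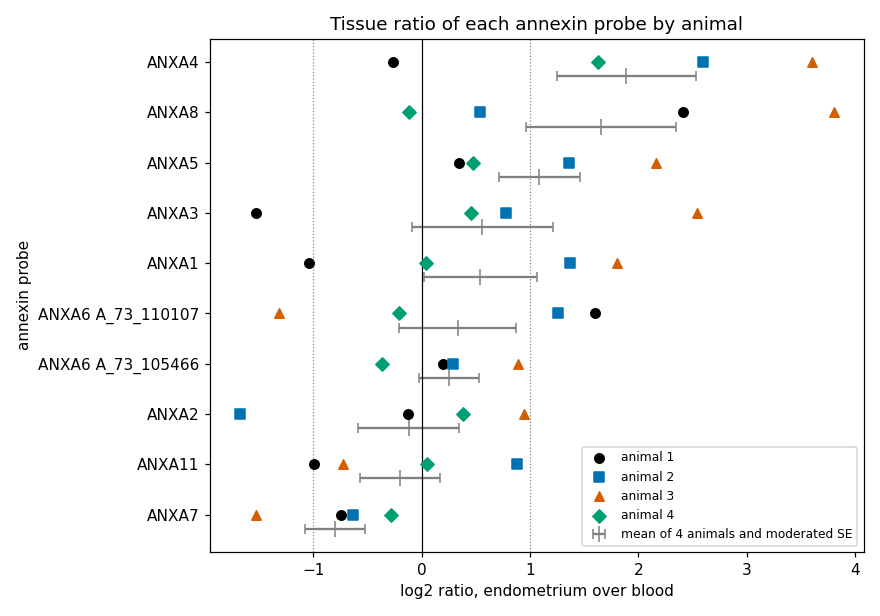
Log2 ratio of endometrium over blood for each tested annexin probe, with 1 symbol per animal, and the mean of the 4 animals with its moderated SE in grey below it. Dotted lines mark a fold change of 2. ANXA5 lies above 0 and ANXA7 below 0 in all 4 animals, and the other 8 probes have animals on both sides.

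The ratios of most annexin probes varied widely between the animals. The SD of the ratio over the 4 animals had a median of 1.21 for the annexins and of 0.68 for all tested probes, and 8 of the 10 annexin probes were above the latter. It ranged from 0.51 for ANXA6 A_73_105466 to 1.79 for ANXA8. The ratio of an annexin on the 2 arrays of an animal, 1 on each of 2 slides, differed by a median of 0.13 and by no more than 0.46. Only ANXA5 and ANXA7 had the same sign in all 4 animals, which is 2 of 10 against 24.9% of all tested probes. No annexin had endometrial levels that lay entirely apart from its blood levels, which 5.43% of all probes had.

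ANXA1 and ANXA3 are annexins known from phagocytes. ANXA1 is released by myeloid cells, is induced by glucocorticoids and restrains the entry of neutrophils into inflamed tissue. Its level in blood was 11.66, 8.58, 8.02 and 7.33 in animals 1 to 4, and in endometrium it was 10.61, 9.95, 9.82 and 7.37. The blood of animal 1 was above all other samples, endometrium was higher than blood in animals 2 and 3, and the tissues of animal 4 lay 0.041 apart, with ratios of opposite sign on its 2 arrays. The mean log2 ratio was 0.54 ± 0.52 (moderated SE, n = 4 animals, adjusted p = 0.649 in limma). Without animal 1 it was 1.07 ± 0.44 over 3 animals, with an adjusted p of 0.422, and without animal 3 it was 0.12.

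ANXA3, abundant in neutrophils and monocytes, gave the widest range of blood levels among the annexins. It was at 12.99 in the blood of animal 1 and at 8.50, 7.89 and 7.91 in that of animals 2 to 4. In endometrium it was at 11.46, 9.28, 10.43 and 8.36. Blood was higher in animal 1 and endometrium was higher in animals 2, 3 and 4, with log2 ratios of -1.53, 0.78, 2.54 and 0.45. The mean ratio was 0.56 ± 0.65, with an adjusted p of 0.718 in limma, and without animal 1 it was 1.26 ± 0.50, with an adjusted p of 0.419. Monocyte and granulocyte genes were both high with ANXA3 in the blood of animal 1, among them CD14 and CD163 with the levels given above. The study's methods took the mononuclear fraction and gated the monocyte region by scatter. CSF3R, the receptor for granulocyte colony-stimulating factor, was at 12.79 in the blood of animal 1 and between 6.48 and 6.65 in that of the others. The summed level of the 7 tested granulocyte genes was 17.17 at its highest and 11.24 at its lowest in blood. Among those genes 2 of 7 had a positive mean ratio, against 47.4% of all tested probes. Their summed level in endometrium lay between 9.60 and 13.67. The part of either cell type in the ANXA3 level was not tested.

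ANXA4 and ANXA7 bind and aggregate membranes inside the cell. ANXA4, which is abundant in secretory epithelia, had the highest mean ratio of the annexins, 1.89 beside 1.66 for ANXA8. The rank turned without animal 2, where ANXA8 had 2.03 and ANXA4 1.65, and without animal 4, where they had 2.25 and 1.98. It also turned with the authors' value table, the scanner's processed signal and median centring. Blood levels were 13.53, 9.11, 9.33 and 8.81 in animals 1 to 4, and its level in endometrium was 13.27, 11.70, 12.93 and 10.43. In animal 1 the tissues lay 0.26 apart, with blood higher, and in the other animals endometrium was higher by 2.59, 3.60 and 1.62. The mean log2 ratio was 1.89 ± 0.64, a fold of 3.70, with an adjusted p of 0.287 in limma. Without animal 1 it was 2.61 ± 0.46, a fold of 6.09, with an adjusted p of 0.419 in limma. The levels of the 3 remaining animals did not overlap between the tissues, as was so for 18.1% of all tested probes.

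ANXA7, also called synexin and known for driving the fusion of secretory granules, had the lowest mean ratio. Its level in blood was 10.97, 11.05, 11.65 and 11.30 in animals 1 to 4, and its level in endometrium was 10.23, 10.41, 10.12 and 11.01. Blood was higher in each animal, yet the blood of animal 1 was below the endometrium of animal 4, so the tissues overlapped. The mean log2 ratio was -0.80 ± 0.28, a fold of 1.74 in favour of blood, with an adjusted p of 0.289 in limma. Without animal 1 it was -0.82 ± 0.36, with an adjusted p of 0.435 in limma. The levels of the 3 animals then did not overlap, as was so for 18.1% of all tested probes. The blood of animal 1 did not stand out for ANXA7 as it did for ANXA1, ANXA3 and ANXA4.

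**Figure D3:**
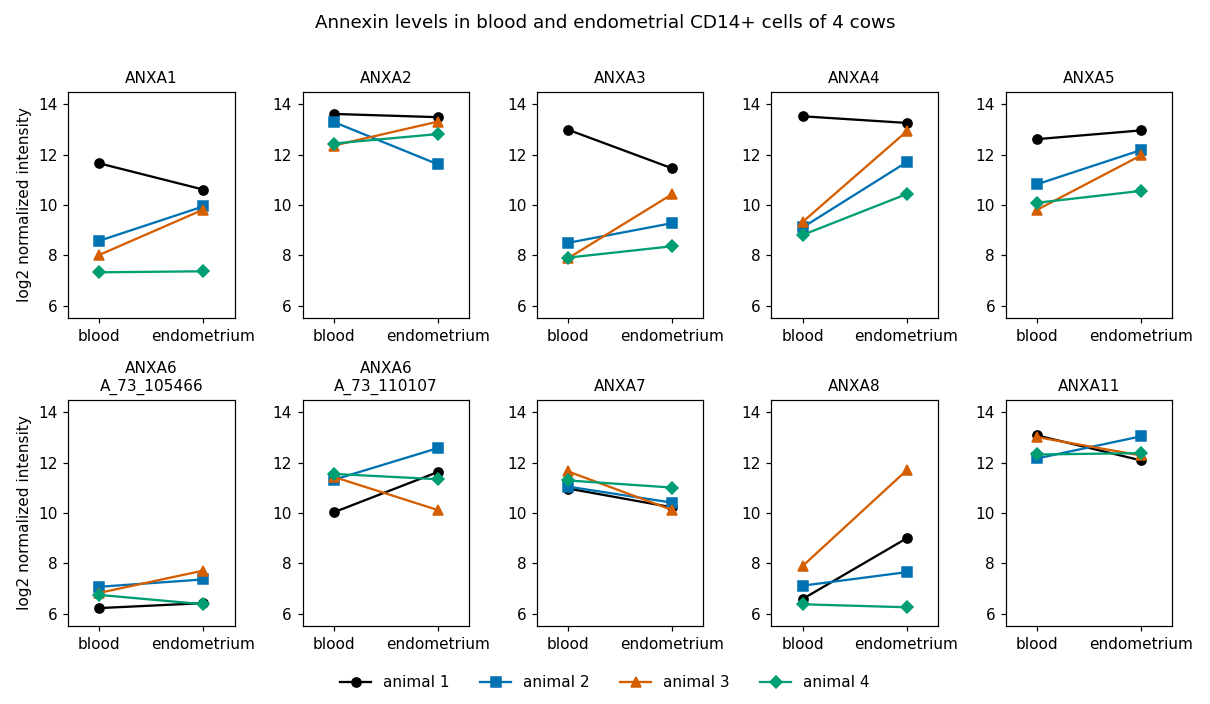
Log2 normalized intensity of the 10 tested annexin probes, with blood and endometrium of an animal joined by a line. The blood of animal 1 lies above the other blood samples by 3.08 for ANXA1, 4.49 for ANXA3 and 4.20 for ANXA4, and the lines for ANXA7 all run down from blood to endometrium.

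ANXA5 and ANXA8 have anticoagulant activity through their binding to phosphatidylserine. ANXA5 was at 12.62 in the blood of animal 1 and at 10.83, 9.81 and 10.09 in that of animals 2 to 4. In endometrium it was at 12.97, 12.19, 11.97 and 10.56. Endometrium was higher in each animal, by 0.35, 1.36, 2.16 and 0.47, but the blood of animal 1 was above the endometrium of the other 3 animals. The mean log2 ratio was 1.09 ± 0.37, a fold of 2.12, with an adjusted p of 0.287 in limma, and without animal 1 it was 1.33 ± 0.42, with an adjusted p of 0.419.

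ANXA8, an annexin of epithelia and late endosomes, differed most among the endometrial samples. It was at 8.99, 7.65, 11.70 and 6.25 in the endometrium of animals 1 to 4, and at 6.58, 7.11, 7.89 and 6.37 in their blood. Animal 3 was highest in both tissues, and in animal 4 both tissues were low. The mean log2 ratio was 1.66 ± 0.69, with an adjusted p of 0.342 in limma, and without animal 1 it was 1.41 ± 0.85, with an adjusted p of 0.525. Without animal 3 it was 0.94, and without animal 4 it was 2.25. The endometrium of animal 3 was also highest for the epithelial gene EPCAM, a surface adhesion molecule, with 13.03 beside 10.06, 8.72 and 8.76. The summed level of the 15 epithelial genes lay between 11.21 and 12.18 in blood and between 12.64 and 16.16 in endometrium. Of the endothelial genes, PECAM1, TEK and ESAM had their highest endometrial level in animal 1. They were at 8.34, 7.11 and 6.66 there and at 6.50, 6.89 and 5.97 in animal 3. CLDN5 was highest in animal 4, with 10.22 beside 9.59 in animal 3. EMCN, CDH5, KDR and VWF were highest in animal 3, as ANXA8 was. KDR, a receptor for vascular endothelial growth factor, was at 7.71, 6.28, 10.26 and 6.31 in the endometrium of animals 1 to 4, and VWF, the von Willebrand factor, at 8.29, 8.50, 11.24 and 6.37. The summed level of the 8 endothelial genes lay between 10.41 and 10.99 in blood and between 10.63 and 12.83 in endometrium. Of the 8, 7 had a positive mean ratio, against 47.4% of all tested probes. The part of epithelium or endothelium in the ANXA8 level was not tested.

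ANXA2, ANXA11 and ANXA6 complete the tested members. ANXA2 forms a complex with S100A10 that gathers plasminogen and its activators at the cell surface. Its level was between 12.37 and 13.62 in blood and between 11.62 and 13.50 in endometrium, with log2 ratios of -0.13, -1.68, 0.95 and 0.38 in animals 1 to 4. Animals 3 and 4 had the higher level in endometrium and the others in blood, and the mean was -0.12 ± 0.46, with an adjusted p of 0.937 in limma. Without animal 1 the mean was -0.12 ± 0.59, with an adjusted p of 0.950. A further probe described as similar to annexin A2 was not named ANXA and so is not a member. Its gene name was LOC618553, and it had a ratio of -0.055, with an adjusted p of 0.931.

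ANXA11, a partner of the calcium sensor PDCD6 that takes part in cytokinesis, was between 12.17 and 13.09 in blood and between 12.09 and 13.05 in endometrium. Its ratios were -0.99, 0.88, -0.73 and 0.054, so 2 animals had the higher level in each tissue. The mean was -0.20 ± 0.37, with an adjusted p of 0.842 in limma, and 0.068 ± 0.40 without animal 1, with an adjusted p of 0.959.

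ANXA6 has a duplicated core and acts in endocytosis and cholesterol traffic, and its 2 probes gave different orders of the samples. The probe A_73_110107 was at 10.03 in the blood of animal 1 and at 11.32, 11.44 and 11.56 in that of animals 2 to 4, and in endometrium at 11.63, 12.58, 10.12 and 11.35. Endometrium was higher in animals 1 and 2 and blood in animals 3 and 4, and the mean ratio was 0.33 ± 0.54, with an adjusted p of 0.811 in limma. Without animal 1 this mean was -0.090 ± 0.56, with an adjusted p of 0.960. The probe A_73_105466 was between 6.22 and 7.07 in blood and between 6.37 and 7.71 in endometrium, with ratios of 0.20, 0.29, 0.89 and -0.37. Here animal 4 alone had the higher level in blood, and the mean was 0.25 ± 0.27, with an adjusted p of 0.696 in limma. Without animal 1 it was 0.27 ± 0.35, with an adjusted p of 0.782. In animal 3 the probes had opposite signs, -1.32 for A_73_110107 and 0.89 for A_73_105466. Pearson's r between them was 0.081 over the 8 sample means, which are 2 tissues of 4 animals and share arrays in pairs. A_73_105466 was much the dimmer probe and so lay nearer to background. The geometric mean of its processed signal from the scanner was 162 in endometrium and 118 in blood. For A_73_110107 these means were 9534 and 7690. The part of this low signal in the different orders and the low r was not tested.

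The blood of animal 1 stood apart for 5 of the annexin probes, high for 4 and low for 1. ANXA1, ANXA3, ANXA4 and ANXA5 were there more than 1 above the highest blood level of animals 2 to 4, which is 4 of 10 against 10.3% of all tested probes. The gap was 1.79 for ANXA5. ANXA6 A_73_110107 was there 1.29 below the lowest blood level of the others, which is 1 of 10 more than 1 below, against 9.25% of all tested probes. Over the 8 sample means, Pearson's r among ANXA1, ANXA3, ANXA4 and ANXA5 was between 0.88 and 0.94. It is given as a description since the samples share animals and the blood of animal 1 was high for each of the 4. Without animal 1, 0 of 10 annexin probes were called, against 0% of all probes, and 2 of 10 passed the unadjusted threshold with a fold over 2, ANXA4 and ANXA5, against 9.68%. Of the 10 probes, 5 then had 1 sign in the 3 animals, against 37% of all probes, and ANXA4 and ANXA7 had levels that did not overlap, against 18.1%. The median ratio of the 10 was then 0.67. Animal 1 alone, for which there is no test, had 4 of 10 annexin ratios above its median of -0.087 over all tested probes. Its log2 ratios were -1.04 for ANXA1, -1.53 for ANXA3 and -0.26 for ANXA4, where blood was higher, and 0.35 for ANXA5 and 2.41 for ANXA8, where endometrium was higher.

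ANXA9, ANXA10 and ANXA13 gave no usable level. ANXA9, which lacks working calcium sites, exceeded background clearly in 2 of 8 endometrial and 1 of 8 blood channels. ANXA10, known from the stomach, was well above background in no channel. ANXA13, an annexin of intestinal epithelium, did so in 2 of 8 endometrial channels but in no blood channel. The geometric mean of the scanner's processed signal was 14.7 in endometrium and 12.9 in blood for ANXA9, 5.81 and 5.82 for ANXA10, and 13.6 and 8.19 for ANXA13. All were below the minimum intensity of 16 that the study's methods used for an expressed gene, and no fold is given.

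The authors' value table, normalized separately, gave mean log2 ratios of the same sign for all 10 tested probes. They were 0.68 for ANXA1, -0.13 for ANXA2, 0.79 for ANXA3, 2.03 for ANXA4 and 1.16 for ANXA5. For the ANXA6 probes A_73_105466 and A_73_110107 they were 0.44 and 0.34. For ANXA7, ANXA8 and ANXA11 they were -0.84, 2.23 and -0.20. The ANXA8 ratio was the one that moved most from the value given above.

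Genes taken to act with annexins were described from lists, by counts beside those over all probes. Of 11 partners listed, 9 were tested, 0 passed the adjusted threshold, and 2 passed the unadjusted threshold with a fold over 2, both higher in endometrium, against 5.27% of all probes. The list median was 0.42. S100A10, the partner of ANXA2, had log2 ratios of -0.53, 0.66, 2.20 and 0.62 in animals 1 to 4, and its blood level of 12.12 in animal 1 was the highest of the 8. S100A11, the partner of ANXA1, was at 14.16, 12.81, 11.16 and 12.02 in blood and at 13.73, 12.96, 13.30 and 13.15 in endometrium. For both, as for ANXA3 and ANXA4, blood was higher in animal 1 and endometrium in the other 3 animals. Their mean ratios were 0.74 ± 0.46 for S100A10, with an adjusted p of 0.482, and 0.75 ± 0.46 for S100A11, with an adjusted p of 0.480 in limma.

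The 2 genes of that list past the unadjusted threshold were PLAT and CAPG. CAPG was listed without a stated annexin that it binds. PLAT, the tissue plasminogen activator that ANXA2 binds, was higher in the endometrium of each animal, by 4.85, 0.87, 3.77 and 1.98 on the log2 scale. Its mean ratio was 2.87 ± 0.69, with an adjusted p of 0.262 in limma. CAPG, a protein that caps actin filaments, had ratios of -0.33, 4.36, 4.13 and 2.35 and a mean of 2.63 ± 0.83, with an adjusted p of 0.275. Its blood level of 14.11 in animal 1 stood above 10.06, 9.45 and 9.79 in the others, as those of ANXA1, ANXA3, ANXA4 and ANXA5 did.

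Receptors and bridging proteins read the same lipid on dying cells that annexins bind. Of 16 listed, 11 were tested, 10 of them had a positive mean ratio, against 47.4% of all probes, and 0 passed the adjusted threshold. Both genes past the unadjusted threshold were higher in endometrium, which is 2 of 11 against 5.27% of all probes. The list median was 0.68. TIMD4, a phosphatidylserine receptor of macrophages, was at 8.67, 6.38, 7.45 and 6.07 in the blood of animals 1 to 4 and at 13.32, 8.52, 10.54 and 8.87 in endometrium. Endometrium was higher in each animal, although the blood of animal 1 was above the endometrium of animal 2, with a mean ratio of 3.17 ± 0.44 and an adjusted p of 0.165 in limma. PROS1, the bridging protein S, had ratios of 4.47, 1.34, 1.92 and 2.43, a mean of 2.54 ± 0.54 and an adjusted p of 0.262.

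**Figure D4:**
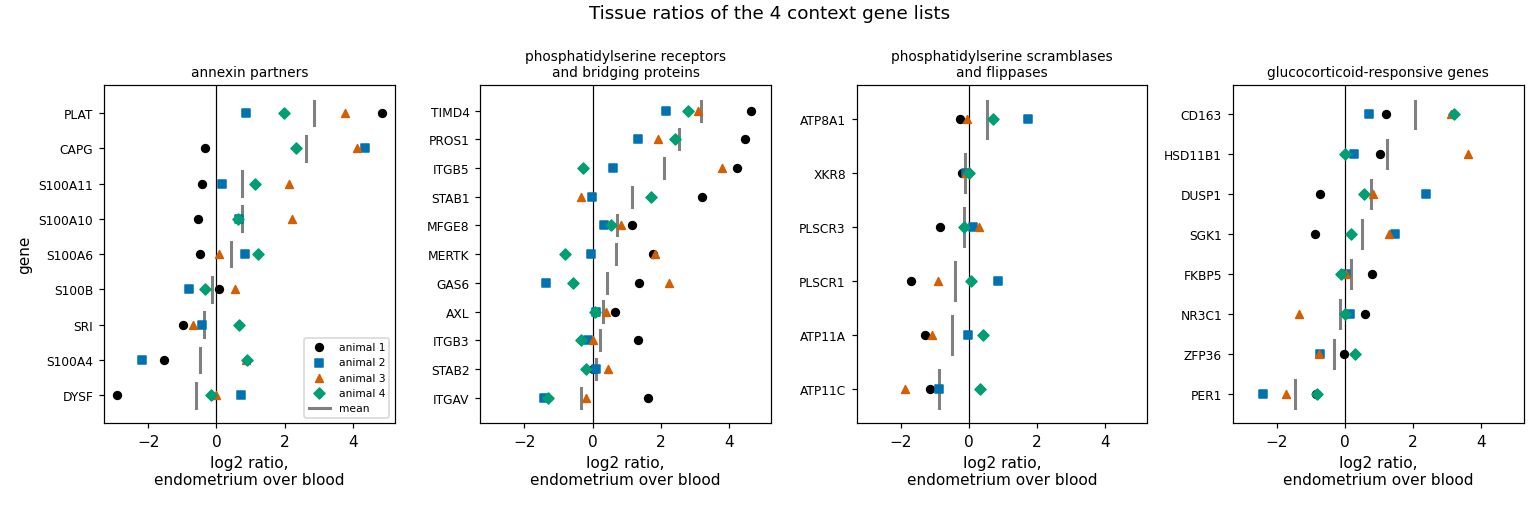
Log2 ratio of endometrium over blood for the tested genes of 4 lists, with 1 symbol per animal and the mean as a grey bar. TIMD4, PROS1 and PLAT lie above 0 and PER1 below 0 in all 4 animals, while S100A10 and S100A11 lie below 0 in animal 1 only.

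Scramblases and flippases set how much phosphatidylserine the outer membrane shows. Of 9 listed, 6 were tested. A positive mean ratio was found for 1 of the 6, ATP8A1 with 0.54 ± 0.39, against 47.4% of all tested probes. In limma 0 passed the adjusted threshold and 0 the unadjusted one with a fold over 2, against 10.4% of all probes. The list median was -0.28. Of 9 glucocorticoid-responsive genes, which are of interest because ANXA1 is one, 8 were tested, the list median was 0.35 and 0 passed the adjusted threshold. CD163 passed the unadjusted threshold with a mean ratio of 2.05 ± 0.52, and PER1, a clock gene, with -1.46 ± 0.34, both with an adjusted p of 0.262 in limma, so 2 of 8 passed it against 10.4% of all probes. NR3C1, the glucocorticoid receptor, had a mean ratio of -0.15 ± 0.37, with an adjusted p of 0.882. No probe was found under the names of the 3 listed ANXA1 receptors, FPR1, FPR2 and FPR3.

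The genes whose levels were most like those of ANXA4 and of ANXA7 were found by Pearson's r over the 8 sample means, among 15940 genes. For ANXA4 they were MINDY1, MTARC2, VDAC1, SUMF1 and the sequence CB427819, with r between 0.987 and 0.991. For ANXA7 they were the sequences CB538508 and AW669709 and the genes SMARCA5, TOR1A and GOLPH3, with r between 0.979 and 0.985. These values rest on 8 means from 4 animals and are given as a description, with no test.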

How the data were processed

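The members and the gene lists were chosen with earlier results of these data known. The authors deposited, for each of 16 samples, a scanner file with the median intensity of each spot and its local background, not normalized, and a processed intensity; the labels name Feature Extraction 9.5 and the file headers 10.5.1.1. A value table by the authors holds log2 levels after their lowess and quantile normalization. The values of each of its columns were reassigned by the rank of a file's processed intensities and compared with the column. Within 0.001, all 16 columns then matched 100% of probes for the file deposited with the animal's other technical replicate, in the labelled dye. With their own file they matched 0.0186% at most, so the files were exchanged accordingly.

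Median intensities were background-corrected (normexp, offset 50) and normalized by loess within arrays and quantiles over channels with limma 3.58.1, statmod 1.5.0 and version 1.17.8 of data.table in R 4.3.3. Controls and 3 to 20 outlier spots per array were removed before averaging a probe's spots. A probe was tested if 4 or more of the 8 channels of either tissue were well above background. The ratio within each animal, the mean of its 2 arrays, was tested against 0 with lmFit and eBayes over all 16654 probes, with Benjamini-Hochberg adjustment. The code was tested on simulated data. An exact test over 4 pairs cannot give a p under 0.125.

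Channel medians were 48 to 155.5 in blood and 52.5 to 402.75 in endometrium, 65.2% to 82.9% of spots were well above background, and none was saturated. The number of animals and arrays limits the precision. The labels pair the tissues by animal, and the correlation of both tissues' deviations from the tissue means was 0.62, 0.36, 0.21 and 0.46 for animals 1 to 4.

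Named were all annexin probes, genes of the lists, and the 5 genes most alike to the highest and the lowest annexin. Of several probes of a listed gene the brightest was used. Lists held annexin partners, ANXA1 receptors, phosphatidylserine scramblases and flippases, phosphatidylserine receptors and bridging proteins, glucocorticoid-responsive genes, and markers of monocytes and macrophages, granulocytes, T and NK cells, B cells, epithelium, stroma, trophoblast and endothelium. Alternatives changed the intensities, background correction, normalization, probe filter, pairing, dye term, technical replicates, file reading, animals, test and threshold. The array was designed on another assembly than that of the annotation used, so no coordinates are given.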

Additional observations from a re-analysis of the deposited data

Results flagged for a closer look

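Among 30 sets of 4 values, the levels in each tissue and the ratios of the 10 tested annexin probes, 3 held a sample that lay farther from the others than the critical value of Dixon's test allows for 4 samples. All were the blood of animal 1. ANXA3 was at 12.99 there and between 7.89 and 8.50 in the other blood samples. ANXA4 was at 13.53 and between 8.81 and 9.33 in the others. ANXA6 A_73_110107 was at 10.03 and between 11.32 and 11.56 in the others, and so lay on the low side. For normally distributed values chance flags about 1 in 20 such groups, and the sets are not independent of each other. The blood of animal 1 lay more than 1 above the other blood samples for 10.3% of all tested probes and more than 1 below for 9.25%. The share of all probes that Dixon's test would flag was not computed. The same sample had the high CD14 and the low CD3E level given above, and the part of those cells in the annexin levels was not tested.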

How the results depend on the processing

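In 17 alternatives that read the files as matched to the value table, 164 of 168 annexin ratios kept their direction and 0 passed the adjusted threshold. The 4 that turned did so without 1 animal. Alternatives that changed only the probe filter, the pairing or the test reused the main ratios, which therefore could not turn. The scanner's processed signal and the authors' table gave nearly the same ratios as each other, so they are not separate checks. Leaving out 1 animal at a time gave ranges of -0.090 (without animal 1) to 0.88 for ANXA6 A_73_110107, -0.56 to 0.068 (without animal 1) for ANXA11, -0.48 to 0.40 (without animal 2) for ANXA2, and -0.10 (without animal 3) to 1.26 for ANXA3. With the scanner files as attached, ANXA2 was at 0.59, ANXA4 at -0.089, ANXA5 at -0.0034, ANXA6 A_73_110107 at -0.99 and ANXA7 at 0.034. Over the 17 alternatives the ratio of ANXA4 ran from 1.32 to 2.61, with adjusted p from 0.0529 to 0.614, that of ANXA5 from 0.73 to 1.34, with adjusted p from 0.0742 to 0.652, that of ANXA8 from 0.94 to 2.25, that of ANXA1 from 0.12 to 1.07, and that of ANXA7 from -0.97 to -0.48, with adjusted p from 0.104 to 0.556. The number of annexin probes called was 0 in each alternative and each time an animal was left out. At the unadjusted threshold with a fold over 2 it was 2, ANXA4 and ANXA5, and became 0 without animal 2, without animal 3, with median centring only, with the files as attached, without pairing and with the methods' least-squares analysis, 1 with no filter, and 3 with no background correction, an offset of 16 or a random block for the animal. Without animal 4 the 2 were ANXA5 and ANXA8, and with the processed signal or the authors' table ANXA4 and ANXA8.

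The number of all probes called, 11, moved to 224 with the processed signal of the scanner, 224 with the values of the authors' table, 50 with no background correction, 66 with an offset of 16, 5 with loess only, 0 with median centring only, 5 with no filter, 55 with probes above background in all 16 channels, 792 when the 8 arrays were fitted with dye as a term and a random block for the animal, 20 and 5 with technical replicate 1 or 2 only, 0 with the files as attached, 0 with the methods' least-squares analysis, 0 each time an animal was left out, and 1728 at the unadjusted threshold. Without the replicate block, that is without pairing, it was 4 and the annexin count was 0. The median ratio of all probes moved by over 0.1 with the scanner's processed signal and the authors' table, to -0.14. The causes were not tested. With 4 animals, a ratio that varies as the annexins did is not resolved, and the probes of ANXA9, ANXA10 and ANXA13 were limited by signal over background.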

Other observations

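The stromal and B cell lists and the endothelial ratios were not described above. Over all tested probes, 47.4% had a positive mean ratio. The median log2 ratio of 11 tested stromal genes was 4.66, 0.0095, 0.76 and 0.86 in animals 1 to 4, and all 11 had a positive mean. For 8 endothelial genes it was 0.71, -0.22, 0.64 and -0.014, with 7 positive means. The 6 B cell genes all had a negative mean, with list medians of -1.23, -1.53, -3.75 and -0.23. None of these genes passed the adjusted threshold in limma, and at the unadjusted threshold with a fold over 2, 2 stromal genes and 1 endothelial gene were higher in endometrium and 3 B cell genes were higher in blood, against 10.4% of all probes in either direction.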
